A study of Homo sapiens with 8 samples.

Results

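The Rag GTPases and the proteins around them tell the kinase complex mTORC1 whether amino acids are at hand, and the RNA levels of 10 such genes were followed in Panc10.05 cells, a human pancreatic cancer line, with and without the drug indisulam. The genes were RRAGA, RRAGB, RRAGC and RRAGD, MTOR, RPTOR, RHEB, FLCN, LAMTOR1 and SLC38A9, that is 10 of the 60675 genes in the count tables. The set was chosen by the parental drug response, because RRAGB had the largest rise there among genes above a minimum mean level over all libraries. The parental drug response is therefore given here as a description, with no test or call. RRAGB was tested only in the resistant cells, whose drug response played no part in that choice.

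Indisulam is a sulfonamide that directs the splicing factor RBM39 to degradation through the DCAF15 ubiquitin ligase. Poly(A) RNA was sequenced from 8 libraries in 4 groups of 2: parental cells left untreated, parental cells given 2 µM indisulam for 18 h, resistant cells kept on 2 µM indisulam throughout, and resistant cells off the drug after a drug holiday. The resistant cells arose by long culture of the parental line in rising indisulam, and whether they are 1 clone is not given in the sources used here. The time on drug thus differed between the lines, so the size of a drug response in one line is not matched for time to that in the other. The study calls the paired libraries technical replicates, so the p-values measure the spread between such libraries and not between independent cultures. The growth notes in the labels speak of A549 lung cancer cells, whereas every title gives Panc10.05, and the latter was used here.

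Rag GTPases work as pairs on the lysosome, 1 of RagA or RagB with 1 of RagC or RagD, and when amino acids are plentiful the pair brings mTORC1 to the lysosomal surface. The Ragulator complex, which contains LAMTOR1, holds the Rags there, and SLC38A9 is a lysosomal amino acid transporter that reports arginine to them. FLCN, folliculin, works with FNIP1 or FNIP2 to stimulate GTP hydrolysis by RagC and RagD, while RHEB, a small GTPase on the same membrane, switches on the kinase. MTOR is the kinase itself and RPTOR encodes Raptor, the subunit that recruits substrates and meets the Rags. All values below are of RNA, and neither splicing within a gene nor protein was analysed.

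Assigned reads ran from 65266253 to 108002436 per library. Levels are given in CPM, read counts scaled to the size of the library. Of 7 ductal epithelial markers, 7 had a mean of at least 1 CPM, and their sum ran from 6329 to 6518 CPM in parental and from 10820 to 12250 CPM in resistant libraries. The fibroblast list summed to 3.93 to 4.02 CPM in treated resistant libraries and to 1.35 to 1.88 CPM in the other 6, with 1 of 5 genes at 1 CPM or more and 2 at 0 reads, and its part in the results for resistant cells was not tested. The leukocyte list reached 0.237 to 0.445 CPM with 3 of 5 genes at 0 reads, the endothelial list 0.207 to 0.426 CPM, and the acinar and islet list at most 0.0462 CPM with 3 of 5 genes at 0 reads. RBM39 RNA was 331.9 and 336.5 CPM in untreated and 716.2 and 731.4 CPM in treated parental cells, and 298.8 and 310.9 CPM in untreated and 577.4 and 591 CPM in treated resistant cells.

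RagA and RagB are close paralogues, so the first matter is whether reads of one could be taken for the other. RRAGA (ENSG00000155876) lies on chromosome 9, 19049427 to 19051025 on the plus strand, as 1 exon, and RRAGB (ENSG00000083750) on chromosome X, 55717749 to 55758774 on the plus strand, with 10 exons in its reference transcript (GRCh38, GENCODE 44). Their coding sequences, 939 and 1038 bases long, were identical at 83.9% of the aligned positions, and the longest run shared without a mismatch was 32 bases. The stretch around that run is shown for both genes, from coding base 251 of RRAGA and from coding base 350 of RRAGB, with the differing bases in capitals.
RRAGA: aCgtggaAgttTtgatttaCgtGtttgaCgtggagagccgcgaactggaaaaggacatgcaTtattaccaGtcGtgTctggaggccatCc
RRAGB: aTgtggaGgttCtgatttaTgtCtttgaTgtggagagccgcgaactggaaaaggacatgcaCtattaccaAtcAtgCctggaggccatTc
Even in this stretch 11 of 90 bases differed. The study sequenced paired reads that were, before trimming, longer than the shared run of 32 bases. Exchange of reads between RRAGA and RRAGB was not tested. RRAGC and RRAGD were less alike, at 74.6% identity with a longest shared run of 21 bases. The RRAGA pseudogene RRAGAP1 held 1 read over all libraries, and neither RRAGA nor RRAGB overlaps another annotated gene.

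The start of RRAGB was read as well, since it is the member with the largest change. In the RefSeq promoter window (GRCh38.p14, chrX:55717499-55717798, plus strand), capitals mark the hexamer CACGTG, an E-box, and the longer palindrome TCACGTGA, of the kind found in lysosomal genes that the transcription factor TFEB acts on.
RRAGB: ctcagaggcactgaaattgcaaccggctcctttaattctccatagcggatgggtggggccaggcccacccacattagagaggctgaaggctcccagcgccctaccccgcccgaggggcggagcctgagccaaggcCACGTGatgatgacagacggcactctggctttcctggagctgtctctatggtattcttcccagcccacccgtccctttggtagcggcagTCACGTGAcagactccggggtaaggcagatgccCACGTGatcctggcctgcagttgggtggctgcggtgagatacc
The window held 3 copies of CACGTG, 1 of them inside TCACGTGA. Over 35116 promoter windows of this length, searched on both strands, 7.26% held CACGTG and 0.98% held TCACGTGA. Among the 8 members with a window, RRAGC and LAMTOR1 had 1 CACGTG each, and MTOR, RPTOR, RHEB, FLCN and SLC38A9 had none. The motif TGATGNAAT, the amino acid response element bound by ATF4 and CHOP, was in none of the 8 members' windows and in 0.991% of all. A match is a description of the letters and not of a bound factor.

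RRAGB encodes RagB, the alternative to RagA in the Rag pair and per length the less abundant of both as RNA in these cells. In parental cells it stood at 7.71 and 7.89 CPM untreated and at 19.03 and 18.99 CPM on indisulam, from 844, 843, 1427 and 1471 reads. In resistant cells it stood at 5.47 and 5.61 CPM off the drug and at 8.20 and 8.18 CPM on it, from 405, 364, 553 and 787 reads. Treated libraries lay above untreated ones in both lines, without overlap, and treated resistant cells were just above untreated parental cells. As bulk RNA was measured, a change in the number of cells with the transcript and a change per cell cannot be told apart.

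RRAGB was 2.44-fold higher on indisulam in parental cells (log2 fold change 1.29, the value that chose the set). Ranked by rise among 9121 genes whose mean log2 CPM reached 3, it was number 1. Just behind it were RBM39 with 1.11 and SAT1, the spermidine and spermine acetyltransferase, with 0.89. The mean of RRAGB was 3.18, close to that minimum, and it includes the treated parental libraries, where RRAGB is highest. Over all 16661 genes tested, RRAGB ranked 109 by rise in parental cells, so the first place depends on the minimum. In resistant cells RRAGB rose 1.48-fold (log2 fold change 0.57, SE 0.064, 95% interval 0.43 to 0.70, adjusted p = 9.3e-08 in edgeR's quasi-likelihood test). Its rank by rise in resistant cells was 149 of 9121, and 1859 of all 16661. RBM39 and SAT1 had 0.94 and 0.97 there. The difference in RRAGB between the lines' responses was -0.72, and resistant cells were lower by log2 values of -0.49 off the drug and -1.22 on it; these contrasts share the parental libraries that chose the gene and were not tested.

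**Figure D1:**
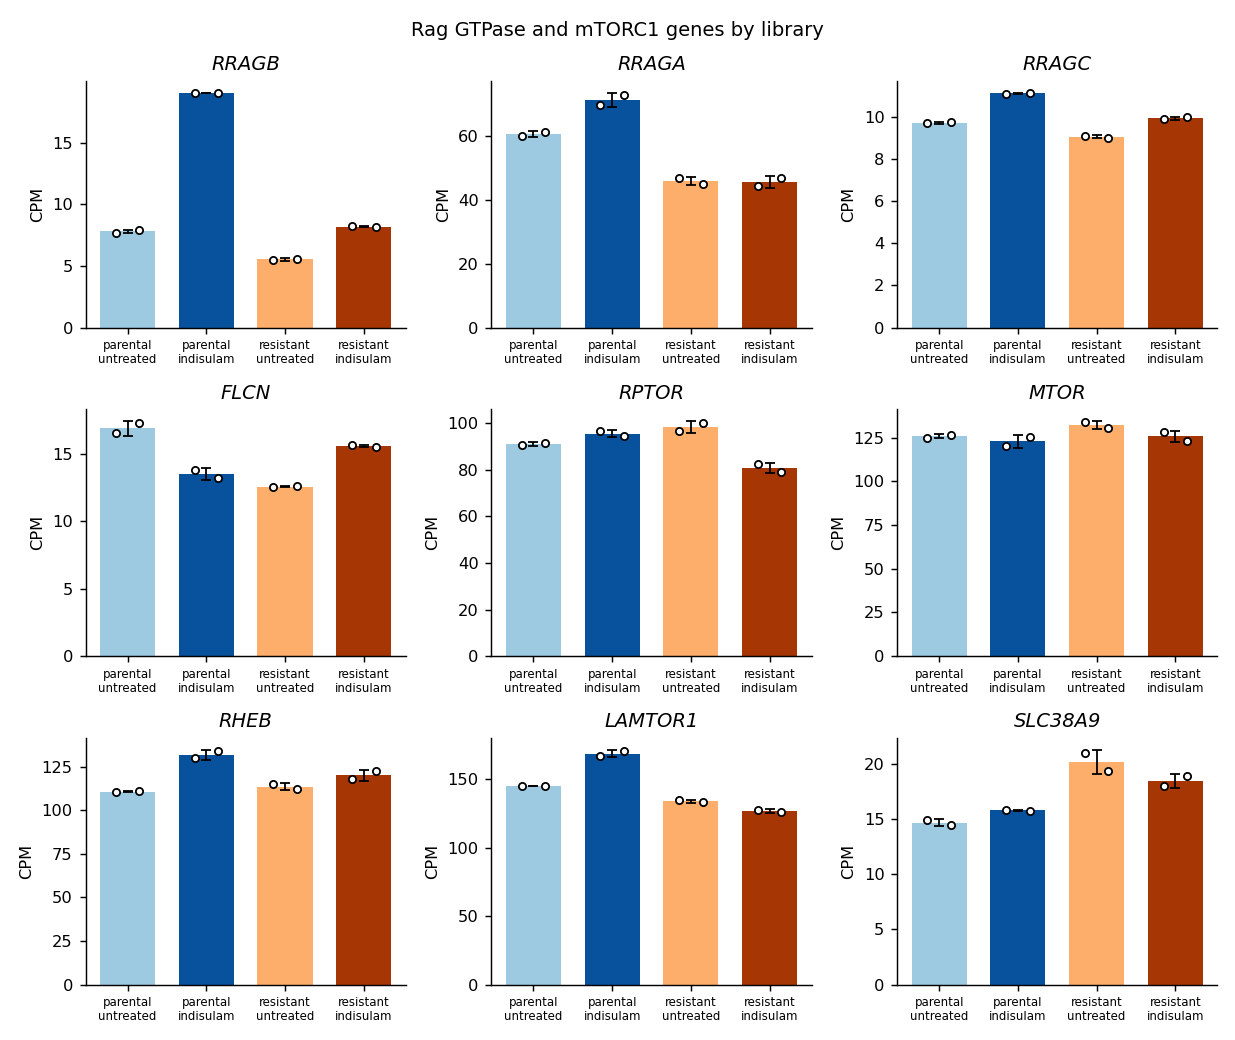
Level of each expressed member in CPM (vertical axes, each starting at 0) in the 4 groups; points are the 2 libraries of a group, bars their mean and error bars the SD. RRAGB reached 19.0 CPM in both treated parental libraries and stayed at or below 8.2 CPM in the other 6, while MTOR stayed between 120.4 and 133.8 CPM in all 8.

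RRAGA encodes RagA. That it rose less than RRAGB in parental cells follows from the choice of RRAGB as the largest rise there. In resistant cells RRAGA had a log2 value on the drug closer to 0 than that of RRAGB. Its levels were 60.04 and 61.3 CPM in untreated and 69.7 and 72.8 CPM in treated parental cells, and 46.9 and 45.04 CPM in untreated and 44.2 and 46.9 CPM in treated resistant cells. The resistant groups overlapped, and each of their 4 libraries was below each of the 4 parental ones. In resistant cells the drug response of RRAGA was -0.01 with an interval of -0.09 to 0.07 (adjusted p = 0.83), so a change beyond that interval was not seen. Off the drug RRAGA was 0.757-fold the parental level (log2 -0.40, SE 0.0365, adjusted p = 1.2e-09), and on the drug 0.64-fold (log2 -0.64, SE 0.0364, adjusted p = 1.4e-13).

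Per kilobase of exon, RRAGB therefore took up a varying part of the RagA and RagB transcripts. It was 7.03 and 7.04% of their sum in untreated parental cells and 13.9 and 13.3% in treated ones. In resistant cells it was 6.43 and 6.83% off the drug and 9.86 and 9.32% on it. RRAGA thus held over 86% of that sum in every library, whichever group it came from. With coding length in place of exon length the group means were 9.71, 18.3, 9.17 and 13.1% in the same order, which is higher throughout and keeps that order of the groups.

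**Figure D2:**
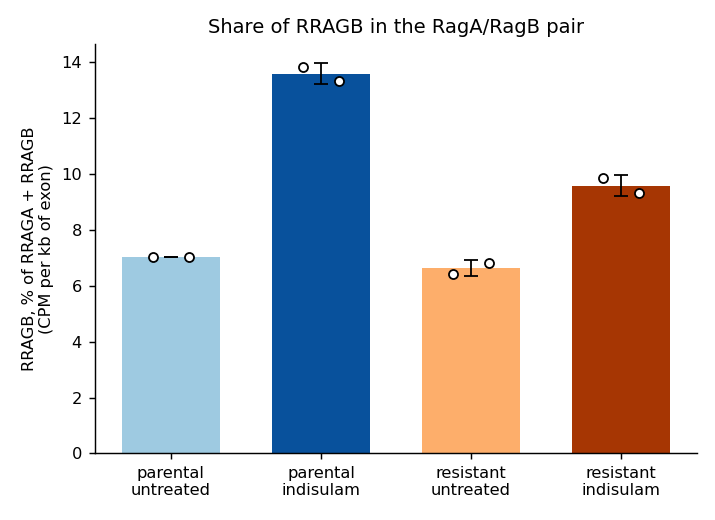
RRAGB as a percentage of RRAGA plus RRAGB, each in CPM per kilobase of exon; bars are group means from 0, error bars the SD of 2 libraries and open points the libraries. The means were 7.04, 13.6, 6.63 and 9.59% for untreated and treated parental and untreated and treated resistant cells.

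RRAGC encodes RagC, on chromosome 1 (38838198 to 38859772, minus strand), and was the only measured gene of the RagC and RagD pair. It stood at 9.68 and 9.75 CPM in untreated and 11.1 and 11.1 CPM in treated parental cells, and at 9.10 and 8.99 CPM in untreated and 9.86 and 9.96 CPM in treated resistant cells. Treated libraries were higher in both lines without overlap, by a log2 value of 0.19 in parental cells. In resistant cells the difference, 0.13 (SE 0.0568, interval 0.02 to 0.25), missed the threshold at an adjusted p = 0.056, and it passed with library totals as the only scaling (0.18, adjusted p = 0.01). RRAGC shares 1183 exon bases with a long non-coding RNA on the same strand that had 0 reads, and reads falling on both are dropped as ambiguous, so its level may be understated.

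RRAGD, which encodes RagD, had 0 reads in each of the 8 libraries. A count of 0 allows up to 3 reads, or 0.0278 to 0.046 CPM depending on the library. Its chromosome 6 neighbours UBE2J1 and LYRM2 held 29712 and 28416 reads. RRAGD was 1 of 3925 protein-coding genes of 19920 (19.7%) with 0 reads throughout, and of the 10 members 9 passed the filter on low counts.

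FLCN, on chromosome 17 (17212212 to 17237188, minus strand), went in opposite directions in the 2 lines. It was 16.5 and 17.3 CPM in untreated and 13.9 and 13.2 CPM in treated parental cells, and 12.5 and 12.6 CPM in untreated and 15.7 and 15.6 CPM in treated resistant cells. The drug thus went with less FLCN RNA in the parental line, 0.80-fold, and with more in the resistant one, 1.24-fold. The resistant rise was 0.31 on the log2 scale (SE 0.0506, adjusted p = 1.8e-05), and the difference between the responses was 0.63 (SE 0.0692, interval 0.49 to 0.78, adjusted p = 1.1e-07). FLCN was lower in resistant than parental cells off the drug (log2 -0.43, adjusted p = 5.1e-08) and higher on it (0.20, adjusted p = 0.00076). FLCN overlaps MPRIP on the opposite strand, which shares no exon base with it and held 94.3% of the reads of both, and it shares 1161 exon bases with a gene on its own strand that had 41 reads; the strand setting of the counting is not given in the sources used here.

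The partners of FLCN, from a list of the complex, are FNIP1 and FNIP2, which act with it on RagC and RagD. FNIP1 was 58.1 and 59.2 CPM in untreated and 76.2 and 75.9 CPM in treated parental cells, and 43.7 and 44.5 CPM in untreated and 59.9 and 62.0 CPM in treated resistant cells. Its resistant rise was 0.47 (adjusted p = 4.8e-11) and that of FNIP2 0.12 (adjusted p = 0.015), so 3 of 3 genes of the complex rose in resistant cells, beside 24.9% of all genes. In parental cells FNIP1 had 0.38 and FNIP2 0.11 against -0.32 for FLCN.

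RPTOR (chromosome 17, 80544819 to 80966371, plus strand) fell on the drug in resistant cells and was slightly higher on it in parental cells. Its levels were 90.4 and 91.5 CPM in untreated and 96.7 and 94.5 CPM in treated parental cells, and 96.5 and 100.1 CPM in untreated and 82.3 and 79.2 CPM in treated resistant cells. The treated resistant libraries were the lowest of the 8. The fall was -0.28 on the log2 scale (SE 0.0316, interval -0.35 to -0.22, adjusted p = 7.3e-08), against a parental value of 0.07, and the responses differed by -0.36 (SE 0.0442, adjusted p = 6.4e-07). Between the lines RPTOR was 1.08-fold higher in resistant cells without indisulam (adjusted p = 0.0033) and stood at 0.845-fold with it (adjusted p = 3e-07).

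MTOR (chromosome 1, 11106535 to 11262556, minus strand, 58 exons) was the steadiest member. Its levels were 125 and 126.6 CPM in untreated and 120.4 and 125.6 CPM in treated parental cells, and 133.8 and 130.8 CPM in untreated and 128.1 and 123.4 CPM in treated resistant cells. The parental groups overlapped, and all group means lay within 123 to 132.3 CPM. The resistant response was -0.07 (interval -0.14 to -0.01, adjusted p = 0.047) and the line difference off the drug 0.07 (adjusted p = 0.041), both close to the threshold and both lost in most of the alternatives run. On the drug the lines differed by 0.03 (interval -0.03 to 0.10, adjusted p = 0.37), and with library totals by 0.12 (adjusted p = 0.001).

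The other genes of the kinase complex were MLST8, DEPTOR and AKT1S1. MLST8 and DEPTOR, a subunit and an inhibitor of the kinase, had -0.26 (adjusted p = 3.5e-06) and -0.75 (SE 0.199, adjusted p = 0.0043) in resistant cells. DEPTOR was at a low level, with means of 1.6 CPM in untreated and 0.94 CPM in treated resistant cells. MLST8 had 81.6 and 68.4 CPM in the same groups. In resistant cells 5 of 5 genes of the complex fell beside 25.8% of all genes. With library totals 3 of 5 fell, and MTOR and AKT1S1 lay close to the threshold, each at an adjusted p = 0.047.

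RHEB (chromosome 7, 151466012 to 151520120, minus strand) was 110.6 and 110.7 CPM in untreated and 129.8 and 133.8 CPM in treated parental cells, and 114.9 and 111.9 CPM in untreated and 117.7 and 122.2 CPM in treated resistant cells. The treated libraries were above the untreated ones in both lines. The resistant rise of 0.08 (SE 0.0304, adjusted p = 0.027) was smaller than the parental 0.25, and the difference of -0.17 (adjusted p = 0.0019) was -0.06 with library totals (adjusted p = 0.28). RHEB has processed pseudogenes, of which RHEBP2 held 235 reads over all libraries against 79499 for RHEB.

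LAMTOR1, the membrane anchor of Ragulator (chromosome 11, 72085895 to 72103297, minus strand), was 145 and 144.8 CPM in untreated and 166.8 and 170.8 CPM in treated parental cells, and 134.9 and 133.3 CPM in untreated and 127.8 and 125.8 CPM in treated resistant cells. The highest libraries were the treated parental and the lowest the treated resistant ones. It had 0.22 in parental cells and fell by 0.08 on the log2 scale in resistant cells (adjusted p = 0.02), a difference of -0.30 (SE 0.0396, adjusted p = 1.4e-06). Resistant cells had less of it in both states, by -0.11 without indisulam (adjusted p = 0.0014) and by -0.41 with it (SE 0.028, adjusted p = 4.3e-12).

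SLC38A9 (chromosome 5, 55625845 to 55773194, minus strand) was 14.9 and 14.4 CPM in untreated and 15.8 and 15.7 CPM in treated parental cells, and 20.9 and 19.4 CPM in untreated and 18.0 and 18.9 CPM in treated resistant cells. All 4 resistant libraries were above all 4 parental ones. It was the member with the largest tested rise between the lines, 1.38-fold off the drug (log2 0.46, SE 0.0479, adjusted p = 1e-08) and 1.17-fold on it (log2 0.23, adjusted p = 0.00025). On the drug it fell in resistant cells by 0.13 (SE 0.0482, adjusted p = 0.03), against a parental value of 0.11.

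Levels can be compared between genes only per length. In CPM per kilobase of exon in untreated parental cells, LAMTOR1 stood highest at 53.9, then RRAGA at 38.0 and RHEB at 31.3, then MTOR at 9.41 and RPTOR at 8.83, then RRAGB at 2.87, RRAGC at 1.90, FLCN at 1.73 and SLC38A9 at 1.66, with RRAGD at 0. The libraries of FLCN and SLC38A9 lay close to each other, at 1.69 and 1.77 against 1.68 and 1.63. On indisulam RRAGB moved to 7.003 in parental cells, still below RPTOR at 9.28.

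Over the 9 measured members, the parental log2 values had a median of 0.19 beside 0.01 over all 16661 genes tested, with FLCN and MTOR below 0. The libraries of the 2 parental groups did not overlap in 8 of 9 members, beside 78.8% of all genes. Since RRAGB chose the set on that contrast, nothing is read from these values. In resistant cells 7 of 9 members were called, 3 higher (RRAGB, FLCN and RHEB) and 4 lower (RPTOR, MTOR, LAMTOR1 and SLC38A9), beside 50.7% of all genes called, 24.9% higher and 25.8% lower, and the median was -0.01 beside 0.01. The libraries did not overlap in 8 of 9 members, all but RRAGA, beside 73.0% of all genes. The call of RRAGB, RPTOR and FLCN held in 17 of 18 alternatives, all but a test against a change of 0.5 log2 units, whereas those of MTOR, RHEB, LAMTOR1 and SLC38A9 were lost in 7 to 12 of them. The count was 4 without untreated resistant library 1 and 4 without treated resistant library 2.

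**Figure D3:**
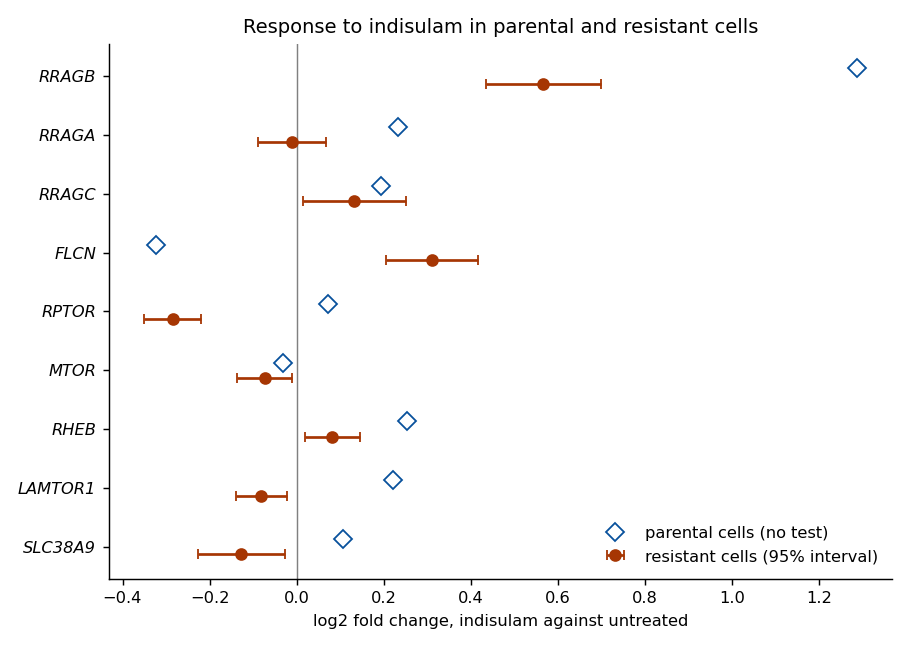
Log2 fold change of each expressed member on indisulam in parental and in resistant cells; points are the fitted values and the bars on the resistant points 95% intervals, while the parental values, which chose the set, carry no test. RRAGB had 1.29 and 0.57, and FLCN is the member furthest apart in the other direction, at -0.32 and 0.31.

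Between the lines, RRAGB left out, 6 of 8 members were called off the drug beside 60.1% of all genes (30.3% higher and 29.9% lower), with MTOR, RPTOR and SLC38A9 higher and RRAGA, FLCN and LAMTOR1 lower in resistant cells. On the drug 7 of 8 were called beside 69.5% of all genes, FLCN and SLC38A9 higher and RRAGA, RRAGC, RPTOR, RHEB and LAMTOR1 lower. The 2 higher and 5 lower members stand beside 34.6% of all genes called higher and 34.9% called lower. Off the drug the libraries of the lines overlapped in 0 of 8 members, where 79.5% of all genes did not overlap, and on it in 1 of 8, MTOR, where 83.8% did not. The call of RRAGC (-0.16, adjusted p = 0.011) was lost in 9 of 17 alternatives, among them library totals (-0.08, adjusted p = 0.23) and the fits without treated parental library 1 (adjusted p = 0.079), treated parental library 2 (0.099) or treated resistant library 1 (0.05). That of RHEB (-0.14, adjusted p = 0.00036) was lost in 3 of 17, library totals included (-0.05, adjusted p = 0.16). With library totals 59.7% of all calls on the drug were higher in resistant cells, against 49.8% with the TMM scaling used throughout.

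The responses of the lines differed in 6 of 8 members beside 50.1% of all genes. FLCN was the 1 member with the larger value in resistant cells, beside 22.7% of all genes called higher, while RRAGA (-0.24, adjusted p = 0.00041), RPTOR, RHEB, LAMTOR1 and SLC38A9 (-0.24, SE 0.0686, adjusted p = 0.0064) had the smaller one, beside 27.5% of all genes called lower. The call of SLC38A9 was lost in 5 of 16 alternatives, with library totals (-0.12, adjusted p = 0.16) and without untreated resistant library 1 (-0.15, adjusted p = 0.09) or treated resistant library 1 (-0.19, adjusted p = 0.057) among them. For RRAGC and MTOR the intervals of the difference were -0.22 to 0.10 and -0.13 to 0.05. Library totals moved the median of all genes in this contrast to 0.12, and 65.8% of its calls were then higher, against 45.2%. The share of reads outside annotated genes moved with the same contrast, at 3.73 and 3.94% in untreated and 2.89 and 2.86% in treated parental cells and at 2.98 and 3.56% in untreated and 3.93 and 3.93% in treated resistant cells; its part in the result was not tested.

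Around the members, 84 genes of the pathway were listed by role, members included, and 81 were measured. In resistant cells 61 of 81 were called on the drug, 28 higher and 33 lower, beside 50.7% of all genes, with a median of -0.01. With library totals 34 were higher and 28 lower. FLCN with its partners and the RHEB and TSC list had no gene called lower in resistant cells, with 3 of 3 and 4 of 5 higher, and the kinase complex and GATOR2 had none called higher, with 5 of 5 and 4 of 5 lower. Library totals gave the same directions for these 4 lists, while for Ragulator they changed 0 higher and 2 lower of 5 to 2 higher and 1 lower.

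Among the upstream sensors, SESN3 and CASTOR2 had the largest called rises in resistant cells. SESN3, a sestrin that restrains GATOR2, was 3.73 and 3.83 CPM in untreated and 5.06 and 5.45 CPM in treated parental cells, and 1.78 and 1.66 CPM in untreated and 3.92 and 3.58 CPM in treated resistant cells. CASTOR2, a relative of the arginine sensor CASTOR1, was 14.5, 15.4, 15.4 and 13.2 CPM in the parental libraries, untreated first, and 10.5, 10.5, 18.0 and 19.9 CPM in the resistant ones. SESN3 was thus higher on the drug in both lines, and CASTOR2 without overlap only in the resistant libraries. Their resistant rises were 1.11 (adjusted p = 8.7e-09) and 0.86 (adjusted p = 4.9e-08), whereas SESN1 and LARS1, a leucyl-tRNA synthetase, fell by 0.33 (adjusted p = 0.0089) and 0.25 (adjusted p = 2.8e-07).

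The GATOR1 and KICSTOR list, which turns the Rags off, had 1 gene higher and 4 lower of 7 in resistant cells, beside 24.9 and 25.8% of all genes. NPRL2 fell by 0.36 (adjusted p = 6.1e-05) and NPRL3 rose by 0.15 (adjusted p = 0.00037). Of GATOR2, WDR24 and WDR59 fell by 0.32 (adjusted p = 3.5e-05) and 0.29 (adjusted p = 1.1e-06). LAMTOR2 was the Ragulator gene with the largest change, from 23.8 and 23.3 to 16.5 and 16.1 CPM (-0.54, adjusted p = 1.9e-09).

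Among the amino acid transporters 3 of 8 rose and 3 fell in resistant cells (4 and 2 with library totals), beside 24.9 and 25.8% of all genes. SLC7A5, the large neutral amino acid carrier, went from 398 and 414.5 to 320.9 and 309 CPM there (-0.37, adjusted p = 9.3e-10) but was 253 and 254.8 CPM in untreated and 298.8 and 282.7 CPM in treated parental cells. Its heavy chain SLC3A2 rose by 0.28 in resistant cells (adjusted p = 2.5e-08) and had 0.58 in parental cells. The lysosomal carrier SLC15A4 rose by 0.28 (adjusted p = 1.4e-05).

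Of 10 measured mTORC1 substrates 6 rose and 4 fell in resistant cells, beside 24.9 and 25.8% of all genes. ULK1, the kinase that starts autophagy, went from 18.2 and 20.7 to 32.4 and 30.7 CPM (0.70, SE 0.106, adjusted p = 0.0021). The related transcription factors MITF and TFEB, which mTORC1 keeps out of the nucleus, went apart: MITF rose by 0.61 (adjusted p = 7.4e-09) and TFEB fell by 0.53 (adjusted p = 9.2e-05). TFEB was 4.28 and 4.05 CPM in untreated and 2.79 and 2.92 CPM in treated parental cells, and 4.48 and 3.90 CPM in untreated and 2.79 and 3.005 CPM in treated resistant cells.

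Of 20 lysosomal genes of the TFEB network 6 were called higher and 7 lower in resistant cells, shares near the 24.9 and 25.8% of all genes. GPNMB, a membrane glycoprotein of lysosomes, went from 3.996 and 4.08 to 9.97 and 10.07 CPM (1.31, SE 0.0759, adjusted p = 1.1e-12), and the sialidase NEU1 from 53.3 and 49.1 to 87.8 and 84.1 CPM (0.74, adjusted p = 5.4e-13). The glycosidase NAGLU went from 16.5 and 17.5 to 8.96 and 8.81 CPM (-0.94, adjusted p = 8.8e-12) and the peptidase TPP1 from 110.2 and 106.2 to 65.2 and 64.8 CPM (-0.74, adjusted p = 5.7e-15). NAGLU was also lower in the treated parental libraries, at 8.23 and 7.12 against 13.9 and 13.3 CPM.

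**Figure D4:**
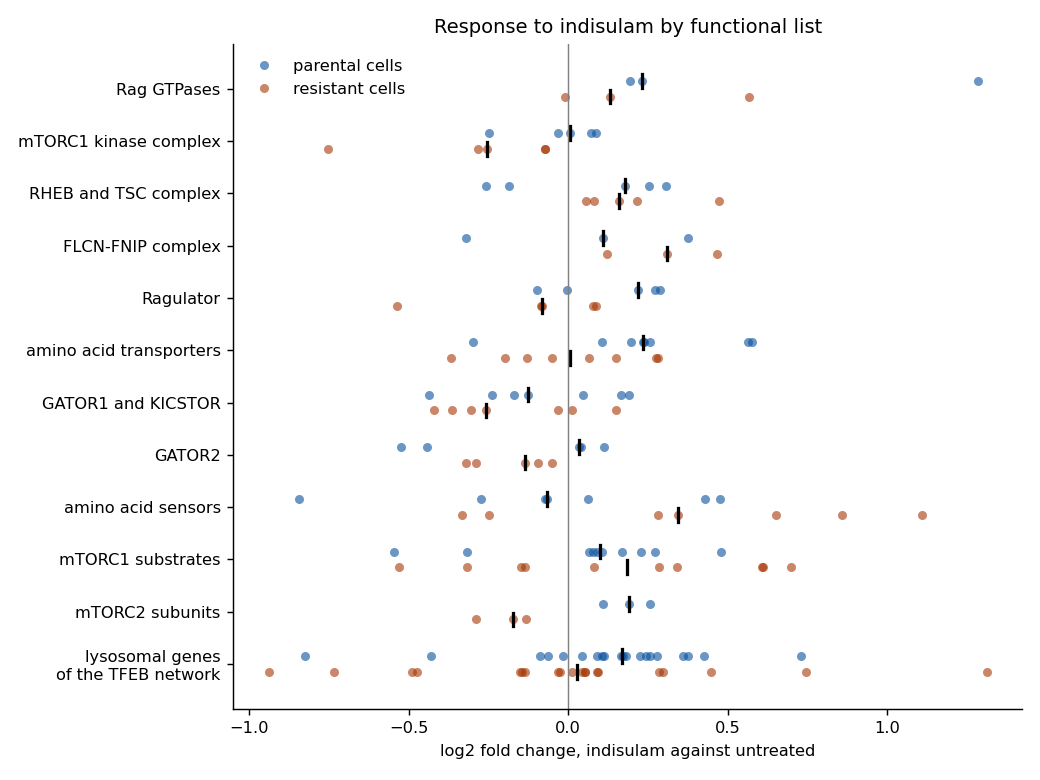
Log2 fold change on indisulam of every measured gene of 12 functional lists, in parental and in resistant cells; each point is a gene and each black tick the median of a list. RRAGB is the point at 1.29 in the first row, and in resistant cells the points of the kinase complex all lie below 0.

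Between the lines off the drug, with RRAGB left out, 56 of 80 listed genes were called, 24 higher and 32 lower in resistant cells, beside 60.1% of all genes. On the drug 66 of 80 were called, 18 higher and 48 lower, beside 34.6 and 34.9% of all genes and with a median of -0.15 beside 0.00. With library totals 26 were higher and 36 lower. The lysosomal list had 3 of 20 higher and 14 lower on the drug, and Ragulator 0 and 4 of 5, which became 5 and 12 and 0 and 3 with library totals. CTSB, a lysosomal cathepsin, went the other way on the drug (1.62, SE 0.0308, adjusted p = 1.6e-22). Off the drug it was also higher, from 65.5 and 64.8 CPM in untreated parental to 179.9 and 171.5 CPM in untreated resistant cells (1.43, SE 0.0305, adjusted p = 8.2e-22).

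The most unequal gene of the lists was GRB10, a growth factor receptor adaptor that mTORC1 phosphorylates. It was 0.329 and 0.374 CPM in untreated and 0.387 and 0.349 CPM in treated parental cells, from 27 to 40 reads, and 4.995 and 5.08 CPM in untreated and 7.50 and 7.84 CPM in treated resistant cells, from 330 to 754 reads. Its line difference was 3.84 off the drug (SE 0.128, adjusted p = 6.8e-18) and 4.38 on it (SE 0.129, adjusted p = 6.4e-19). The amino acid transporter SLC36A4 was also higher in resistant cells (1.38 without indisulam at an adjusted p = 1.1e-13, and 1.62 with it at 1.9e-14). TSC1, a subunit of the complex that turns RHEB off, was lower (-0.63, adjusted p = 4.4e-14, and -0.64, adjusted p = 1.8e-14), as was the mTORC2 subunit MAPKAP1 on the drug (-0.75, adjusted p = 7.8e-17).

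**Figure D5:**
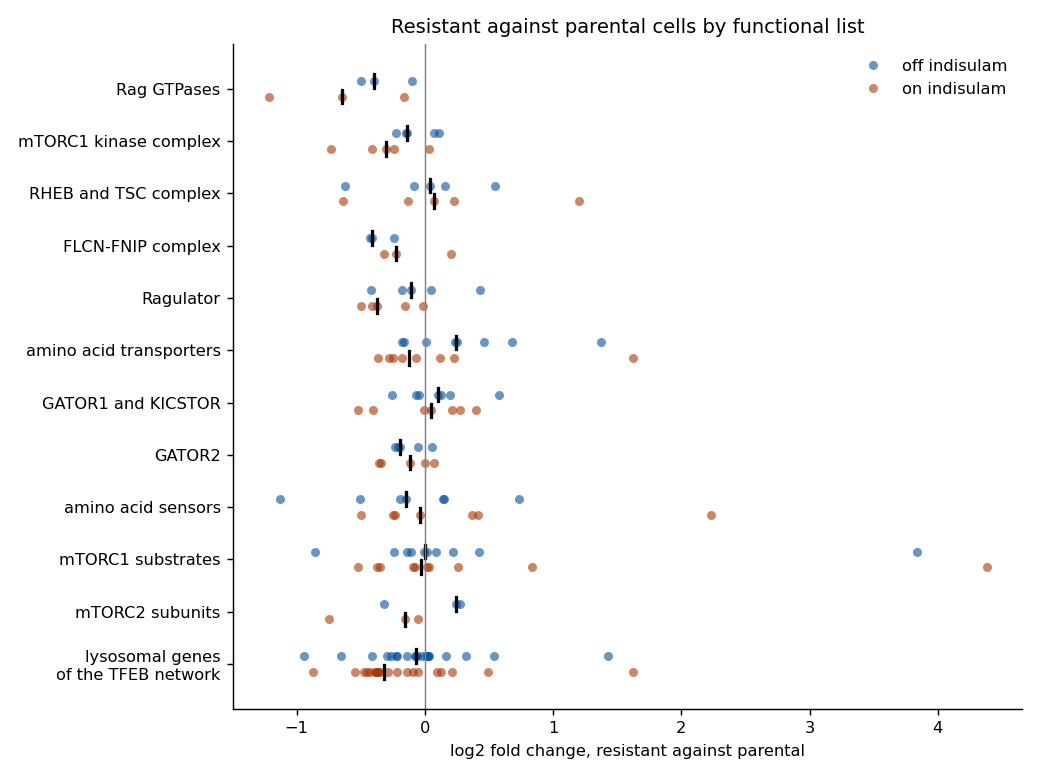
Log2 fold change between resistant and parental cells of every measured gene of the 12 lists, off and on indisulam; each point is a gene and each black tick the median of a list. GRB10, at 3.84 and 4.38, stands apart from the other mTORC1 substrates.

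Over the 8 libraries the genes whose log2(CPM + 1) followed that of RRAGB most closely, of 9090 compared, were TAMM41 and EYA3 with a Pearson r of 0.998 each, ZNF263 with 0.997, and INTS2 and SENP6 with 0.996 each. The 8 points are 4 groups of 2 libraries, so r describes 4 levels. Their log2 values on indisulam in parental cells ran from 0.27 for SENP6 to 0.79 for EYA3. These had to lie below that of RRAGB, which was chosen as the largest parental rise above the same minimum level. In resistant cells the values ran from 0.11 for SENP6 to 0.34 for TAMM41, below the 0.57 of RRAGB.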

How the data were processed

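Poly(A) RNA was sequenced in 8 libraries. The authors trimmed reads with SeqPurge and aligned them to GRCh38, and per the labels HISAT2 2.2.1, Picard and HTSeq were used; the annotation release and strand setting are not given in the sources used here. The deposited values are raw read counts per Ensembl gene, 60675 genes. Closing lines of unassigned reads (37.9 to 44.9% of each table, duplicates included) were left out of library sizes and tests. GENCODE 44 matched 60419 genes by identifier.

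From these counts, edgeR 4.0.16 (R 4.3.3) fitted 4 group means over 8 libraries with filterByExpr, TMM scaling and the robust quasi-likelihood test; 16661 genes were tested and p-values were Benjamini-Hochberg adjusted over them, with a threshold of 0.05. CPM used TMM-scaled totals. With 2 libraries against 2, an exact permutation test cannot go below p = 0.333. DESeq2 1.42.0 and other settings were alternatives. Sequences came from RefSeq (GRCh38.p14) promoter windows, which matched 8 of 10 members, and GENCODE coding sequences on GRCh38. Floors cover counting error only. Replicate libraries had r of 0.9993 to 0.9996 on log2(CPM + 1).

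The members and lists were chosen with earlier results of these data known. Genes named are the members; in each list and comparison up to 2 called genes with the largest rise and 2 with the largest fall; the next 2 genes behind RRAGB; and the 5 most like it; 1 gene that this rule names is not reported here.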

Additional observations from a re-analysis of the deposited data

Results flagged for a closer look

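The drug responses of the lines differed, by the interaction test of edgeR, in 6 members. The differences, resistant minus parental on the log2 scale, were 0.63 for FLCN, which was lower on the drug in each parental and higher in each resistant library, -0.36 for RPTOR, -0.30 for LAMTOR1, -0.24 for RRAGA, -0.235 for SLC38A9 and -0.17 for RHEB. The call of SLC38A9 was lost in 5 of 16 alternatives (to -0.12, adjusted p = 0.16, with library totals) and that of RHEB in 3 of 16.

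The same test singled out listed genes by the naming rule, of which those reported here follow. The larger values in resistant cells were 1.03 for GPNMB, 0.93 for CASTOR2, 0.66 for RHEBL1, 0.64 for SESN3, 0.62 for ULK1, 0.34 for MITF, 0.32 for NEU1, 0.31 for TSC2 and 0.23 for WDR59. The smaller ones among lysosomal genes and transporters were -0.65 for TPP1, -0.53 for CTSD, -0.56 for SLC7A5 and -0.43 for SLC1A5. In Ragulator, KICSTOR and GATOR2 they were -0.44 for LAMTOR2, -0.20 for LAMTOR5, -0.45 for KICS2, -0.17 for SEC13 and -0.16 for SEH1L. In the kinase complexes, the sensors and the substrates they were -0.26 for MLST8, -0.16 for AKT1S1, -0.43 for MAPKAP1, -0.40 for RICTOR, -0.175 for LARS1, -0.41 for EIF4EBP1 and -0.24 for EIF4EBP2. With library totals 20 of these 25 genes were still called, and AKT1S1 (-0.05), LAMTOR5 (-0.09), SEC13 (-0.05), SEH1L (-0.05) and LARS1 (-0.06) were not.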

How the results depend on the processing

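The members called in resistant cells fell from 7 to 4 with the DESeq2 Wald test and 4 with only the groups compared in the fit, to 3 at an adjusted p under 0.01 and to 0 against a change of 0.5 log2 units (glmTreat, 0 also at an unadjusted p under 0.05); leaving out 1 library gave 4 to 7. Against 0.5 log2 units, the members called were 0 off the drug (0 unadjusted), 1 on it (RRAGA, adjusted p = 0.00044) and 0 in the difference of responses (1 unadjusted, FLCN), and the listed genes called were 6, 9, 10 and 3, from 61, 56, 66 and 52. The members' parental median of 0.19 was 0.20 with DESeq2 size factors (0.199) and with the DESeq2 Wald test (0.199), 0.126 with library totals, 0.162 with no filter, 0.136 under a minimum mean CPM of 1, 0.172 with only the groups compared, and 0.17 to 0.199 without 1 library.

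Values that changed sign were not called in either fit. RRAGA in resistant cells was 0.038 with library totals, 0.017 under the CPM minimum, and -0.059 to 0.024 over the fits without 1 library, above 0 without untreated resistant replicate 1 (0.022) or treated resistant replicate 1 (0.024). The difference of responses was 0.055 and 0.024 for RRAGC and 0.073 and 0.043 for MTOR under those first 2 settings, and for MTOR 0.008 without treated parental replicate 2 and 0.005 without treated resistant replicate 2, in a range of -0.055 to 0.008. With coding length the RRAGB share was 9.71, 18.3, 9.17 and 13.1%.

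The deviations of same-numbered libraries had r from -0.192 to 0.137 over 6 pairs of groups. Counting noise pulls such values toward 0, so they cannot decide whether same-numbered libraries were handled together. The main fit did not use the numbers as pairs. A replicate block in the fit gave 8319 genes in resistant cells (8446 without it), and 6 of 9 members, since MTOR lost its call there (adjusted p = 0.058) and between the lines off the drug (0.051, 5 of 8 members); no other member changed. Crossing the numbers in the resistant groups (r = -0.114), chosen after seeing the data, also gave 6 members. The causes were not tested.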
